A study of Mus musculus with 12 samples.

Results

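The chemokines and chemokine receptors of gut CD4 T cells form a set of 9 genes. The ligands are Ccl3, Ccl4, Ccl5, Xcl1 and Ccl20, and the receptors are Ccr2, Cxcr3, Cxcr4 and Cxcr6. They were found by symbol in the deposited array table, where 10 of 25697 probes carried them, with 2 probes for Ccl4. After older symbols were replaced by current ones, the table held 17916 gene names. Of the 9 genes, 7 passed the detection filter and were tested among 10612 genes. Ccr2 and Ccl20 did not pass it and are described by their levels only.

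CD4 intraepithelial lymphocytes of the small intestine were sorted from mice of the B6-ThPOK-GFP reporter strain, in which green fluorescent protein reports the helper-lineage transcription factor ThPOK. The sorted subsets were ThPOK+CD8a-, ThPOK-CD8a- and ThPOK-CD8a+, called here ThPOK+, CD8a- and CD8a+ cells. The hosts labelled WT were reporter mice, and those labelled TR were RAG-/- recipients of naive CD4 T cells taken from reporter mice, a colitis model in which the host makes no T or B cells of its own. All mice carried the reporter or received reporter cells and were 10 to 12 weeks old, with 2 arrays, numbered 1 and 2 as replicates, for each of the 6 groups. The 3 arrays of 1 host and replicate number are called a set, so each subset was measured in 4 sets.

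Chemokines are small secreted proteins that bind G protein-coupled receptors on leukocytes and direct their migration. Ccl3, Ccl4 and Ccl5 are made by activated and cytotoxic T cells and NK cells, while Xcl1 acts on Xcr1, a receptor of cross-presenting dendritic cells. Ccl20 is made mainly by epithelium and attracts Ccr6-bearing cells. Cxcr3 binds the interferon-induced ligands Cxcl9, Cxcl10 and Cxcl11. Cxcr4 binds Cxcl12, Cxcr6 binds Cxcl16, and Ccr2 binds Ccl2 and related ligands of inflamed tissue.

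Promoter windows were available for 7 of the 9 genes, from 250 bases before to 50 after the RefSeq transcription start on GRCm38.p6. Ccl4 and Ccl5 were not among them. Windows were read on both strands for the RUNX core, TGTGGT or on the other strand ACCACA, because RUNX3 is the CD8-lineage factor that opposes ThPOK in mouse T cells. They were also read for the AP-1 site TGANTCA, the T-box core, GGTGTGA or on the other strand TCACACC, and the TATA box, TATAAA or on the other strand TTTATA. The 4 windows shown are those of the ligand Ccl3 and of the tested receptors Cxcr3, Cxcr4 and Cxcr6, and capitals mark the RUNX core or the TATA box.
Ccl3: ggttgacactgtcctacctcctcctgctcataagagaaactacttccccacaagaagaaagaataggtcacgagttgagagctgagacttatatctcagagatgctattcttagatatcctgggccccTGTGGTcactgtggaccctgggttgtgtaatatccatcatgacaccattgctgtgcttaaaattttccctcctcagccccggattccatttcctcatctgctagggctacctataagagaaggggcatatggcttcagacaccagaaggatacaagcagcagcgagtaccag
Cxcr3: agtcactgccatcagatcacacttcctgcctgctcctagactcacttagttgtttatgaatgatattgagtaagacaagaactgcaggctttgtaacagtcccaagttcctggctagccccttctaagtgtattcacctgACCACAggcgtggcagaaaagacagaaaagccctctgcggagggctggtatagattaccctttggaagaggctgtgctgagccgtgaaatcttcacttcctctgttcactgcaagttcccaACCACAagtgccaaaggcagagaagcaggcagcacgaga
Cxcr4: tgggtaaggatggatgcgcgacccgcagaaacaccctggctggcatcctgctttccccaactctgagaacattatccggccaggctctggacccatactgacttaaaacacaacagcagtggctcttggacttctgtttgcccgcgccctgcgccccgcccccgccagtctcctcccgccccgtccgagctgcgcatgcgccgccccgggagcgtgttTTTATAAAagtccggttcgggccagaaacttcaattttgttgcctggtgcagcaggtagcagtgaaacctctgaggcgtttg
Cxcr6: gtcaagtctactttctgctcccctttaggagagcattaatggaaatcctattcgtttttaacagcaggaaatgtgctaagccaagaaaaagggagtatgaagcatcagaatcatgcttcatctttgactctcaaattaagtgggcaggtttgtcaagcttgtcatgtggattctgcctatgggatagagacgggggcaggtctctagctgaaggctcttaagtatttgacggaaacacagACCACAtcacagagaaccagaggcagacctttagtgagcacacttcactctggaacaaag
The Ccl3 window is chr11:83649329-83649628 on the minus strand, and its RUNX core starts at base -122 from the start site. The Cxcr3 window is chrX:101734098-101734397 on the minus strand, with RUNX cores that start at -110 and 12. The Cxcr4 window is chr1:128592250-128592549 on the minus strand, with no RUNX core and with overlapping TATA matches on the strands at -32 and -30. The Cxcr6 window is chr9:123806227-123806526 on the plus strand, with a RUNX core at -10. Of the windows not shown, those of Xcl1 and Ccl20 hold 1 RUNX core and 1 T-box core each, and that of Ccr2 holds none of the motifs. The RUNX core occurs in 16.8% of the 32851 windows of the table, the T-box core in 3.98%, the TATA box in 13.6% and the AP-1 site in 7.81%. No window of the set held the AP-1 site. These matches describe the letters of the windows, and nothing in the arrays measured binding there.

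Values are log2 normalized intensities, and a probe was called detected on an array at a detection p-value under 0.05. Replicate 1 was dimmer, with median raw signals of 113.6 to 130.8 and 12024 to 13091 probes detected per array, and replicate 2 was brighter, with medians of 206.7 to 246.2 and 6721 to 8195 probes detected. All 6 groups are in both. The probes of the set rested on 20 to 61 beads per array, with a standard error of the raw signal over beads of 2.14% to 9.17%. Of 8 listed T cell markers, Cd4, Cd3d, Cd3e, Cd3g and Lck were detected on 12 of 12 arrays. Cd2 was detected on 11 and Cd247 on 10, and Cd5 had no probe. Cd8a, on which the cells were sorted, had a difference of 0.43 between CD8a+ and ThPOK+ cells (limma adjusted p = 0.543). Nothing in the labels says that the 2 arrays of a group came from separate animals, so p-values reflect array-to-array spread that may be technical only. With sorted cells measured in bulk, fewer cells of a type and less RNA per cell cannot be told apart.

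Of the 7 tested genes, Ccl4 rose in CD8a+ cells against ThPOK+ cells and no other passed the test, where limma called 0.565% of all genes tested (0.254% as higher). At an unadjusted limma p under 0.05 there were 5 of the 7, against 9.79% of all genes. In CD8a- against ThPOK+ cells 0 of the 7 were called (0.0565% of all genes), with 4 at an unadjusted p under 0.05 (8.65% of all genes). In CD8a+ against CD8a- cells 0 were called (0% of all genes), with 0 at an unadjusted p under 0.05 (5.1% of all genes). Between CD8a+ and ThPOK+ cells, the groups did not overlap for 2 of the 7, Ccl3 and Ccl4, against 3.05% of all genes, and between CD8a- and ThPOK+ cells for Ccl4, against 2.68%. The difference had the same sign in 4 of 4 sets for 4 of the 7, against 17.7% of all genes. In CD8a- against ThPOK+ cells 2 of the 7 had the same sign in 4 of 4 sets (18% of all genes), and in CD8a+ against CD8a- cells 5 did (14.3% of all genes), with sizes within their intervals around 0.  Ccl3 passed the detection filter only through the subsets in which it was high, so these counts describe the genes and are not evidence on the set. The median difference of the 7 was 0.06, with 0.00 over all genes tested.

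**Figure D1:**
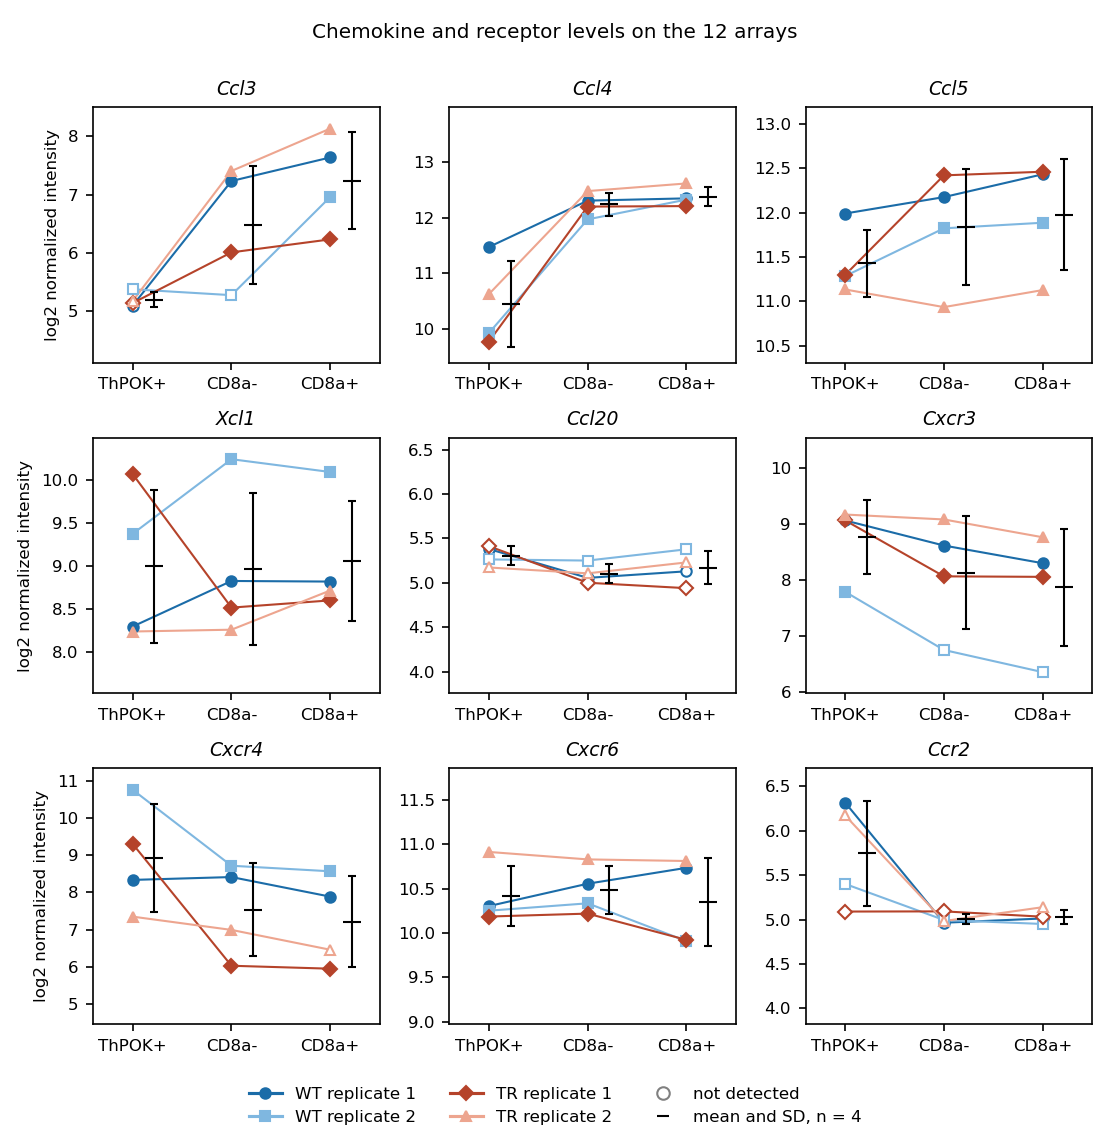
Log2 normalized intensity of the 9 genes (y axis) in the 3 sorted subsets (x axis), with lines joining the arrays of 1 set, open symbols for arrays on which the probe was not detected, and bars for the mean and SD of 4 arrays. Ccl4 sits at 9.77 to 11.47 in ThPOK+ cells and at 11.97 or above on every array of the other subsets. Ccl20 is not detected on any array, and each panel has its own y range.

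Ccl4 (macrophage inflammatory protein 1-beta), a chemokine of activated T cells, was the only gene of the set that was called between subsets. In ThPOK+ cells its level was 11.47 and 9.93 on the WT arrays and 9.77 and 10.63 on the TR arrays, for replicates 1 and 2 in that order. In CD8a- cells the level was 12.31 and 11.97 in WT hosts and 12.20 and 12.48 in TR hosts. In CD8a+ cells it was 12.35 and 12.33 in WT hosts and 12.21 and 12.62 in TR hosts. Every ThPOK+ array lay below every array of the other subsets, and the ThPOK+ arrays were also the most spread. The means were 10.45 ± 0.78, 12.24 ± 0.21 and 12.37 ± 0.17 (SD, n = 4) in ThPOK+, CD8a- and CD8a+ cells.

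In raw signal the Ccl4 probe read 926.6 to 3512.9 on ThPOK+ arrays, 3116.1 to 6356.8 on CD8a- arrays and 4194.7 to 6243.2 on CD8a+ arrays, so the gene was well above background in each subset. The ranges of raw signal of ThPOK+ and CD8a- cells overlapped before normalization. Ccl4 was 3.79-fold higher in CD8a+ than in ThPOK+ cells, a log2 difference of 1.92 ± 0.27 (SE, 95% interval 1.32 to 2.53, limma adjusted p = 0.0193). The difference was positive in all 4 sets, from 0.87 in the WT set of replicate 1 to 2.43 in the TR set of replicate 1. In CD8a- cells Ccl4 stood 1.79 ± 0.27 above ThPOK+ cells, with an interval of 1.18 to 2.39. It was above in 4 of 4 sets, and the limma adjusted p of 0.0577 was just over the threshold. CD8a+ and CD8a- cells were neighbours in the order of levels and did not differ beyond their spread, at 0.14 ± 0.27 with an interval of -0.47 to 0.74.

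The second probe of Ccl4 gave lower signals and the same order. It read 5.05 to 6.16 on ThPOK+ arrays, 7.22 to 7.80 on CD8a- arrays and 6.89 to 8.55 on CD8a+ arrays, and was detected on 2, 4 and 4 of 4 arrays. Its groups did not overlap between ThPOK+ cells and either other subset. With every kept probe tested by itself, the second probe differed by 1.79 ± 0.32 between CD8a+ and ThPOK+ cells (limma adjusted p = 0.0472 over 14635 probes). Between CD8a- and ThPOK+ cells it differed by 1.79 ± 0.32 as well (limma adjusted p = 0.0873).

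The Ccl4 call had limits. It was lost when any of 6 of the 12 arrays was left out, with limma adjusted p from 0.0675 to 0.103 and a difference of 1.73 to 2.26 over all 12 omissions. Those 6 arrays were both CD8a+ and both ThPOK+ arrays of TR hosts and replicate 2 of both subsets in WT hosts. Within replicate 1 the difference was 1.65 ± 0.44 and within replicate 2 it was 2.19 ± 0.24, and neither passed the test with 6 arrays (limma adjusted p = 0.383 and 0.511).

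Ccl3 (macrophage inflammatory protein 1-alpha), a close relative of Ccl4, was not detected above background on any of the 4 ThPOK+ arrays. Its levels there were 5.10 and 5.38 in WT hosts and 5.14 and 5.18 in TR hosts. In CD8a- cells the levels were 7.23 and 5.28 in WT hosts and 6.01 and 7.41 in TR hosts, with detection on 3 of 4 arrays. In CD8a+ cells they were 7.64 and 6.96 in WT hosts and 6.23 and 8.13 in TR hosts, with detection on 4 of 4. The CD8a+ arrays all lay above the ThPOK+ arrays, whereas the CD8a- array of the WT set of replicate 2 lay among them.

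The Ccl3 means were 5.20 ± 0.12, 6.48 ± 1.02 and 7.24 ± 0.83 (SD, n = 4) in ThPOK+, CD8a- and CD8a+ cells, and no difference passed the test. The difference between CD8a+ and ThPOK+ cells was 2.04 ± 0.38 (95% interval 1.18 to 2.91, limma adjusted p = 0.0591), positive in 4 of 4 sets. Against the lowest detectable signal of the ThPOK+ arrays, CD8a+ cells had at least 2.09-fold higher Ccl3 (limma adjusted p = 0.0591). CD8a- cells had at least 1.24-fold higher Ccl3 (limma adjusted p = 0.369). Its difference between CD8a+ and CD8a- cells was 0.76 ± 0.38, with an interval of -0.11 to 1.63. For CD8a+ against ThPOK+ cells, whether Ccl3 passed the threshold varied with the setting. The limma adjusted p was 0.0289 without background correction, 0.0295 with another background model, 0.047 with a stricter detection filter and 0.0232 on the authors' deposited log2 values. It was 0.113 with no detection filter, 0.133 with a block of the replicate number only, 0.146 with no block, 0.166 with only the arrays compared and 0.757 with naive markers as a covariate. The size depends on the background correction, since the log2 difference was 0.97 ± 0.18 without it and 1.04 ± 0.19 on the deposited values, both below the bound of 2.09-fold that holds for the corrected signals.

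Ccl5 (RANTES), which memory and effector T cells make, was detected on 12 of 12 arrays. In ThPOK+ cells its levels were 11.99 and 11.28 in WT hosts and 11.30 and 11.13 in TR hosts. In CD8a- cells they were 12.17 and 11.82 in WT hosts and 12.42 and 10.94 in TR hosts. In CD8a+ cells they were 12.43 and 11.89 in WT hosts and 12.46 and 11.13 in TR hosts. The groups overlapped, since the TR array of replicate 2 was the lowest of each subset, at 10.94 to 11.13. The difference between CD8a+ and ThPOK+ cells was 0.55 ± 0.22 (limma adjusted p = 0.438), positive in 3 of 4 sets and largest, at 1.16, in the TR set of replicate 1.

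Xcl1 (lymphotactin) was detected on every array, and its levels did not follow the subsets. In ThPOK+ cells its levels were 8.30 and 9.38 in WT hosts and 10.07 and 8.24 in TR hosts. In CD8a- cells they were 8.83 and 10.25 in WT hosts and 8.52 and 8.26 in TR hosts, and in CD8a+ cells 8.82, 10.10, 8.60 and 8.72 in the same order. The 3 arrays of the WT set of replicate 2 and the ThPOK+ array of the TR set of replicate 1 were the highest, and the other 8 lay between 8.24 and 8.83. The subset means were 8.999 ± 0.89, 8.96 ± 0.89 and 9.06 ± 0.70 (SD, n = 4). The difference between CD8a+ and ThPOK+ cells was 0.06 ± 0.37, with an interval of -0.78 to 0.91 (limma adjusted p = 0.974), so a difference below that size was not resolved. It was 0.52, 0.72 and 0.48 in 3 sets and -1.47 in the TR set of replicate 1.

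Ccl20 was not detected on any of the 12 arrays, with raw signals of 90.7 to 218.4. The levels of 5.31 ± 0.11, 5.10 ± 0.11 and 5.17 ± 0.18 (SD, n = 4) for ThPOK+, CD8a- and CD8a+ cells are background values and were not tested.

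Cxcr3, the receptor of interferon-induced ligands that marks Th1 and effector T cells, lay on the side opposite to Ccl4. In ThPOK+ cells its levels were 9.06 and 7.79 in WT hosts and 9.06 and 9.17 in TR hosts. In CD8a- cells they were 8.62 and 6.75 in WT hosts and 8.06 and 9.08 in TR hosts. In CD8a+ cells they were 8.30 and 6.35 in WT hosts and 8.06 and 8.76 in TR hosts. The groups overlapped. The WT set of replicate 2 was lowest in each subset, and on its CD8a- and CD8a+ arrays the probe was not detected. Apart from that set, the ThPOK+ arrays lay above the CD8a+ arrays, while TR CD8a- replicate 2, at 9.08, lay among the ThPOK+ arrays.

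Within each of the 4 sets the order of Cxcr3 levels was ThPOK+, then CD8a-, then CD8a+. The difference between CD8a+ and ThPOK+ cells was -0.90 ± 0.20 (95% interval -1.35 to -0.46, limma adjusted p = 0.0949), from -0.41 to -1.44 over the sets. Between CD8a- and ThPOK+ cells it was -0.64 ± 0.20 (limma adjusted p = 0.392). Neither passed the test, and without background correction the first did, at -0.56 ± 0.11 (limma adjusted p = 0.0378). With a block of the replicate number only, the first had a limma adjusted p of 0.787. The neighbours CD8a+ and CD8a- differed by -0.26 ± 0.20, with an interval of -0.71 to 0.19.

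Cxcr4, the receptor that guides naive and memory lymphocytes to Cxcl12-producing tissue, had the widest range of levels of the 9 genes. Its levels in ThPOK+ cells were 8.34 and 10.76 in WT hosts and 9.30 and 7.35 in TR hosts. In CD8a- cells they were 8.41 and 8.72 in WT hosts and 6.03 and 6.99 in TR hosts, and in CD8a+ cells 7.88, 8.57, 5.95 and 6.46 in the same order. The means were 8.94 ± 1.45, 7.54 ± 1.26 and 7.21 ± 1.22 (SD, n = 4), and the groups overlapped. The difference between CD8a+ and ThPOK+ cells was -1.72 ± 0.50 (95% interval -2.84 to -0.60, limma adjusted p = 0.234). It was below 0 in 4 of 4 sets and ran from -0.45 to -3.36. In CD8a- cells the difference from ThPOK+ cells was -1.40 ± 0.50 (limma adjusted p = 0.47).

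Cxcr6, a receptor of tissue-resident and effector T cells, showed the flattest levels of the tested receptors in the set. Its means of 10.41 ± 0.34, 10.48 ± 0.27 and 10.34 ± 0.50 (SD, n = 4) for ThPOK+, CD8a- and CD8a+ cells lay close together, and it was detected on every array. Its levels ran from 9.91 in WT CD8a+ replicate 2 to 10.91 in TR ThPOK+ replicate 2. The difference between CD8a+ and ThPOK+ cells was -0.07 ± 0.17 with an interval of -0.45 to 0.31 (limma adjusted p = 0.938), and a difference within that interval was not resolved.

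Ccr2, a receptor of monocytes and of memory T cells drawn to inflamed tissue, was detected on 1 of 12 arrays, WT ThPOK+ replicate 1, at 6.32. The other ThPOK+ arrays read 5.40 in WT hosts and 5.09 and 6.17 in TR hosts. All CD8a- and CD8a+ arrays read between 4.95 and 5.14, and none of them detected the probe. Ccr2 was not tested.

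**Figure D2:**
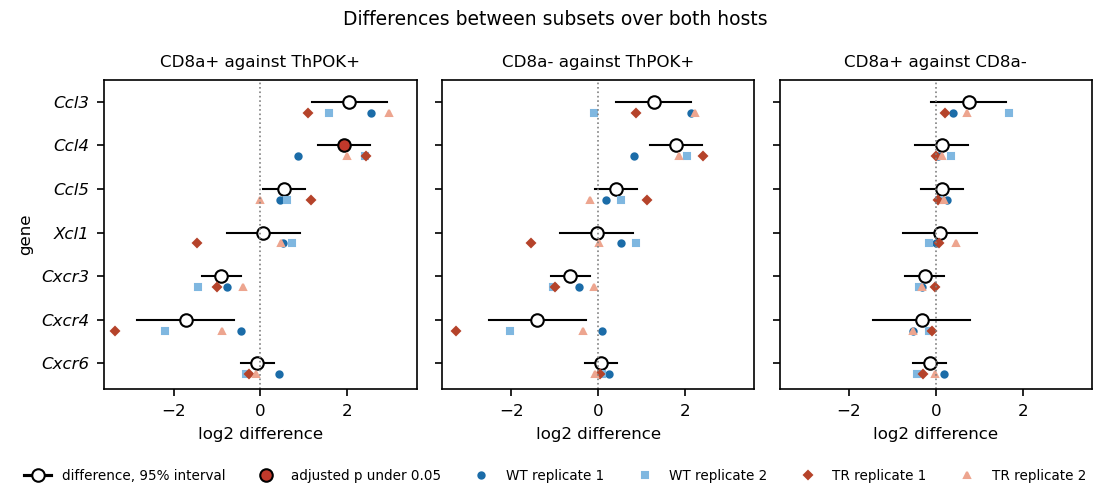
Log2 differences between subsets over both hosts (x axis) for the 7 tested genes (y axis). Circles with bars are the fitted difference and its 95% interval, filled where the limma adjusted p is under 0.05, and small symbols are the difference within each of the 4 sets. The filled circle is Ccl4 in CD8a+ against ThPOK+ cells, at 1.92, and every interval between CD8a+ and CD8a- cells includes 0.

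Markers of naive and circulating T cells moved with some of these genes. The mean level of 7 measured markers of naive and circulating T cells, among them Tcf7, Il7r and Satb1, was 7.67 to 9.50 on the ThPOK+ arrays. It was 6.63 to 7.66 on the CD8a- arrays and 6.29 to 7.21 on the CD8a+ arrays. The highest means were 9.50 on TR ThPOK+ replicate 1 and 8.96 on WT ThPOK+ replicate 2, and no other array exceeded 7.89. Those 2 arrays had the lowest levels of Ccl4, 9.77 and 9.93, and the highest of Cxcr4, 9.30 and 10.76. The naive-cell receptor Ccr7, also in that list, was detected on these 2 arrays only, at 8.75 and 7.10. Whether the listed genes were carried by the sorted cells themselves or by other cells was not tested.

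Without these 2 arrays, chosen after seeing the data, 0 of the 10612 genes tested were called between CD8a+ and ThPOK+ cells. Ccl4 differed by 1.46 ± 0.29 between them (limma adjusted p = 0.333) and was thus no longer called. Cxcr4 then differed by -0.57 ± 0.22 and Cxcr3 by -0.56 ± 0.20 (limma adjusted p = 0.807 and 0.744). The Ccl3 difference was larger, at 2.85 ± 0.34 against 2.04 with all arrays, and was not called either (limma adjusted p = 0.186). With the mean of the naive markers as a covariate the difference was 1.14 ± 0.32 for Ccl4 and 0.11 ± 0.34 for Cxcr4 (limma adjusted p = 0.884 and 1). The Ccl3 difference with it was 3.07 ± 0.505 (limma adjusted p = 0.757), and 0 of the 10612 genes tested were called. The covariate also takes up part of the subset term, since all ThPOK+ arrays had higher means than the others.

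Epithelial markers were uneven between arrays. The mean of 12 Paneth and goblet cell markers was 9.57 on WT ThPOK+ replicate 1, 8.10 on WT ThPOK+ replicate 2 and 9.58 on WT CD8a+ replicate 2, and 5.24 to 7.25 on the other 9 arrays. The mean of 13 epithelium markers ran from 5.96 to 9.04. Without those 3 arrays, chosen after seeing the data, Ccl4 was still called between CD8a+ and ThPOK+ cells, at 2.21 ± 0.21 (limma adjusted p = 0.0355). Both WT ThPOK+ arrays were among those left out, so ThPOK+ cells remained in TR hosts only and WT hosts were not covered. For CD8ab and gamma-delta T cells, which also make Ccl4 and Ccl5, 4 of 7 listed markers had a probe and 2 passed the detection filter, Cd8a and Cd8b1. The gamma-delta markers Sox13 and Blk were detected on 0 and 1 of 12 arrays. The mean of Cd8a and Cd8b1 was 6.25 to 6.73 on the ThPOK+ arrays, 6.47 to 7.19 on the CD8a- arrays and 6.81 to 7.86 on the CD8a+ arrays, and Cd8b1 was detected on 5 of 12 arrays. The part of these cells in the Ccl4 difference was not tested. Of 4 NK cell markers with a probe, Klrb1c was detected on 7 arrays, Eomes on 3, Klra4 on 1 and Ncr1 on 0. The mean of the 2 that passed the filter was 5.60 to 6.23 on ThPOK+ arrays, 5.10 to 6.19 on CD8a- arrays and 5.69 to 6.34 on CD8a+ arrays. All 12 myeloid markers had a probe. Tyrobp and Cst3 were detected on 12 arrays, Itgax and Aif1 on 6, Lyz2 and Csf1r on 4, Fcer1g, Adgre1 and Cybb on 2, and Cd14, Itgam and Cd68 on 0. The mean of the 9 that passed the filter was 6.10 to 6.86 on ThPOK+ arrays, 5.90 to 6.82 on CD8a- arrays and 5.96 to 6.98 on CD8a+ arrays. The part of NK and myeloid cells in these results was not tested.

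**Figure D3:**
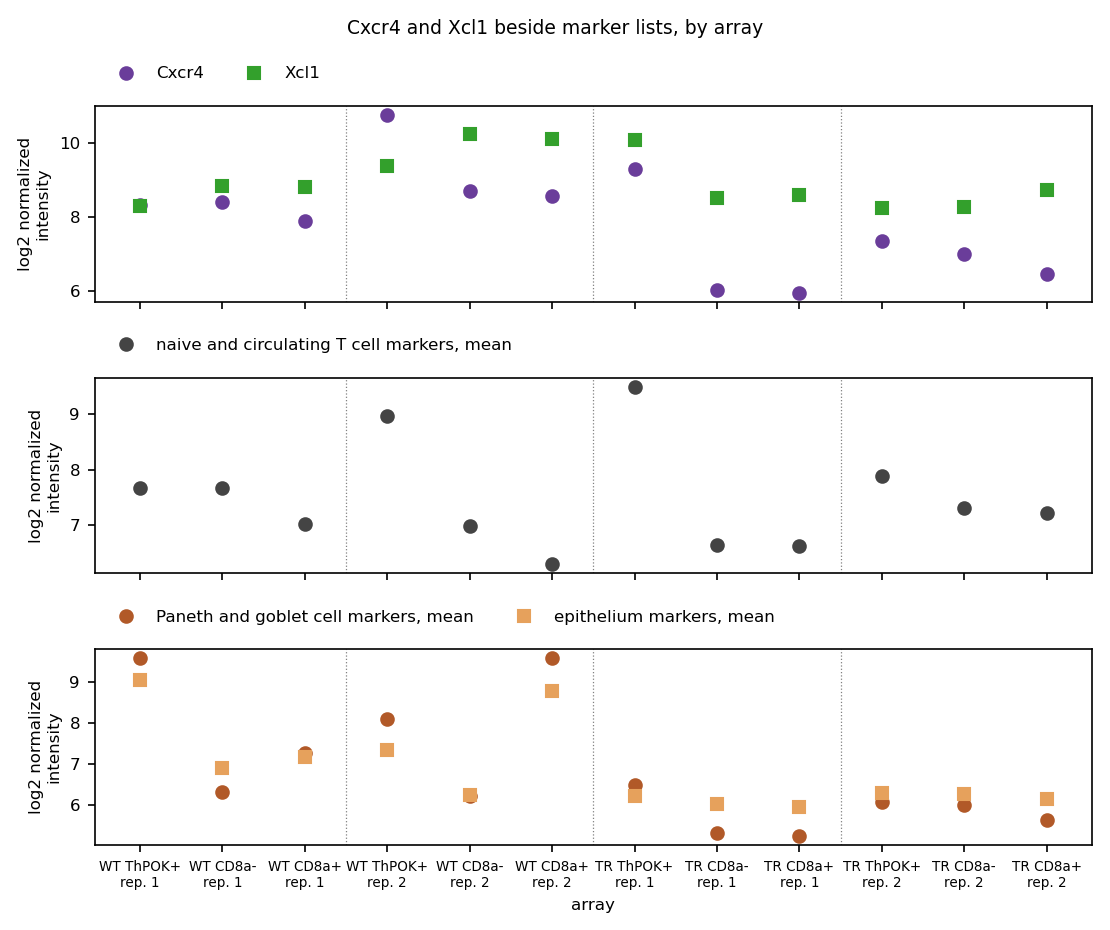
Log2 normalized intensity (y axis) on each of the 12 arrays (x axis, in sets of 3) of Cxcr4 and Xcl1 in the upper panel and of the mean of marker lists in the other panels. The naive marker mean is highest on TR ThPOK+ replicate 1 (9.50) and WT ThPOK+ replicate 2 (8.96), where Cxcr4 is also highest. The Paneth and goblet mean exceeds 8 on 3 arrays of WT hosts.

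Between hosts, 0 of the 7 genes passed the test for TR against WT (0% of all genes), with 1 of the 7, Cxcr4, at an unadjusted limma p under 0.05 (4.55% of all genes). The deposited tables conflict on which host replicate 1 came from, so differences are given as the intensity table names the hosts and then with those hosts exchanged. Each host was measured in only 2 sets, and the fit of TR against WT had no term for the set. It counted the arrays of a set as independent, so its SE and p-values, adjusted or not, can be too small. Cxcr4 was 8.78 ± 1.01 in WT hosts and 7.01 ± 1.25 in TR hosts (SD, n = 6 arrays), a difference of -1.77 ± 0.48 (limma adjusted p = 0.609). Exchanged, the means were 8.22 ± 1.90 and 7.57 ± 0.78 and the difference was -0.65. Cxcr3 was 7.81 ± 1.07 in WT and 8.70 ± 0.51 in TR hosts, a difference of 0.89 ± 0.46 (limma adjusted p = 1), and 1.15 exchanged, with means of 7.68 ± 0.98 and 8.83 ± 0.34. The size of the Cxcr4 difference moved with the naming of the hosts more than that of Cxcr3.

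The host differences of the other genes did not pass the test either. Xcl1 differed by -0.54 ± 0.41 (-0.96 exchanged), Ccl5 by -0.37 ± 0.34 (-0.23 exchanged) and Cxcr6 by 0.13 ± 0.26 (0.56 exchanged). For Ccl3 the difference was 0.09 ± 0.45 (0.95 exchanged), and for Ccl4 it was -0.07 ± 0.29 and turned to 0.57 exchanged. Whether subset differences depended on the host was tested by interaction terms, and 0 of the 7 genes were called by limma for CD8a+ or for CD8a- against ThPOK+ cells (0% of all genes in either). At an unadjusted p under 0.05 there were 0 of the 7 in the first (3.9% of all genes) and 0 in the second (3.59% of all genes). The nearest to a call was Xcl1 in CD8a- against ThPOK+ cells, where the TR difference minus the WT difference was -1.47 ± 0.62 (limma adjusted p = 0.999). Exchanged, this value turned to 0.62 ± 0.78 (limma adjusted p = 0.999). With the hosts exchanged 0 of the 7 were called in either (0% of all genes), and Ccl3 and Cxcr4 were at an unadjusted p under 0.05 in both (4.98% and 4.04% of all genes). For Cxcr4 the exchanged values were 2.10 ± 0.48 in CD8a+ and 2.52 ± 0.48 in CD8a- against ThPOK+ cells (limma adjusted p = 0.913 and 0.999), where the names as given had -0.80 ± 1.06 and -0.83 ± 1.06 (limma adjusted p = 0.998 and 0.999).

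Among 19 other chemokine receptors, 17 had a probe and 10 were tested. Ccr6 alone was called in CD8a+ and in CD8a- against ThPOK+ cells (0.565% and 0.0565% of all genes). In CD8a+ against CD8a- cells 0 were called (0% of all genes). Ccr6, the receptor of Ccl20 and a marker of Th17 cells, was lower in CD8a+ and in CD8a- cells than in ThPOK+ cells. Its levels in ThPOK+ cells were 9.93 and 10.64 in WT hosts and 10.71 and 10.79 in TR hosts. In CD8a- cells they were 6.30 and 5.82 in WT hosts and 7.83 and 7.12 in TR hosts, and in CD8a+ cells 6.93, 6.43, 7.79 and 6.17 in the same order. The ThPOK+ arrays lay above the others with no overlap, and Ccr6 was detected on 4, 3 and 2 of 4 ThPOK+, CD8a- and CD8a+ arrays.

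Ccr6 differed by -3.68 ± 0.35 between CD8a+ and ThPOK+ cells (limma adjusted p = 0.0108) and by -3.75 ± 0.35 between CD8a- and ThPOK+ cells (limma adjusted p = 0.0187). With each array left out in turn, the first ran from -3.96 to -3.36 and was called each time, and the second ran from -4.02 to -3.48. The second lost its call without any of 6 arrays, which were replicate 2 of ThPOK+ cells in either host, both TR CD8a- arrays, WT CD8a- replicate 1 and TR CD8a+ replicate 1, with limma adjusted p of 0.0545 to 0.152. Without the 2 arrays highest in naive markers, chosen after seeing the data, 0 of 10612 genes were called in either comparison. The Ccr6 differences were then -3.69 and -3.76 and neither was called (limma adjusted p = 0.186 and 0.415). Without the 3 highest in Paneth and goblet markers, which by the host names used left ThPOK+ arrays of TR hosts only, they were -3.58 and -3.46 (limma adjusted p = 0.0543 and 0.112). Both calls were also lost with only the arrays compared (limma adjusted p = 0.0831 and 0.0762), with replicate 1 alone (0.107 and 0.0789), with replicate 2 alone (0.511 and 0.943) and with the naive covariate (0.61 and 0.401), and the second with the Paneth covariate (0.0778). The sizes were smaller without background correction, at -2.54 ± 0.18 and -2.56 ± 0.18, and on the authors' deposited log2 values, at -2.47 ± 0.13 and -2.54 ± 0.13, with both called (limma). The Ccr6 ligand Ccl20 was not detected on these arrays. The median difference of the 10 receptors was -0.32 and -0.39 in these comparisons and 0.06 between CD8a+ and CD8a- cells.

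Ccr4, a receptor of Th2, regulatory and skin-homing T cells, was detected on 4 of 4 ThPOK+ arrays and on 0 of 4 CD8a+ arrays. Its mean in ThPOK+ cells was at least 2.14-fold higher, and the difference did not pass the test (limma adjusted p = 0.0816). Ccr8, found on regulatory and Th2 cells, was detected on 2 of 4 ThPOK+ arrays and on 0 of 4 CD8a+ arrays (limma adjusted p = 0.0617). Its mean in ThPOK+ cells was below the lowest detectable signal of the CD8a+ arrays, so no fold is given. Ccr7 was detected on 2 of 4 ThPOK+ arrays and 0 of 4 CD8a+ arrays. The difference between CD8a+ and ThPOK+ cells did not pass the test (limma adjusted p = 0.453). It was -1.98 in the WT set of replicate 2 and -3.36 in the TR set of replicate 1, where Ccr7 was detected. In the other sets it was -0.11 and -0.06. Without ThPOK+ arrays, where they were high, Ccr4, Ccr8 and Ccr7 would not have passed the detection filter. Ccr9, the gut-homing receptor, was added after its values were seen. Its level was 9.24 ± 0.60, 9.15 ± 0.36 and 9.03 ± 0.52 (SD, n = 4) in ThPOK+, CD8a- and CD8a+ cells.

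**Figure D4:**
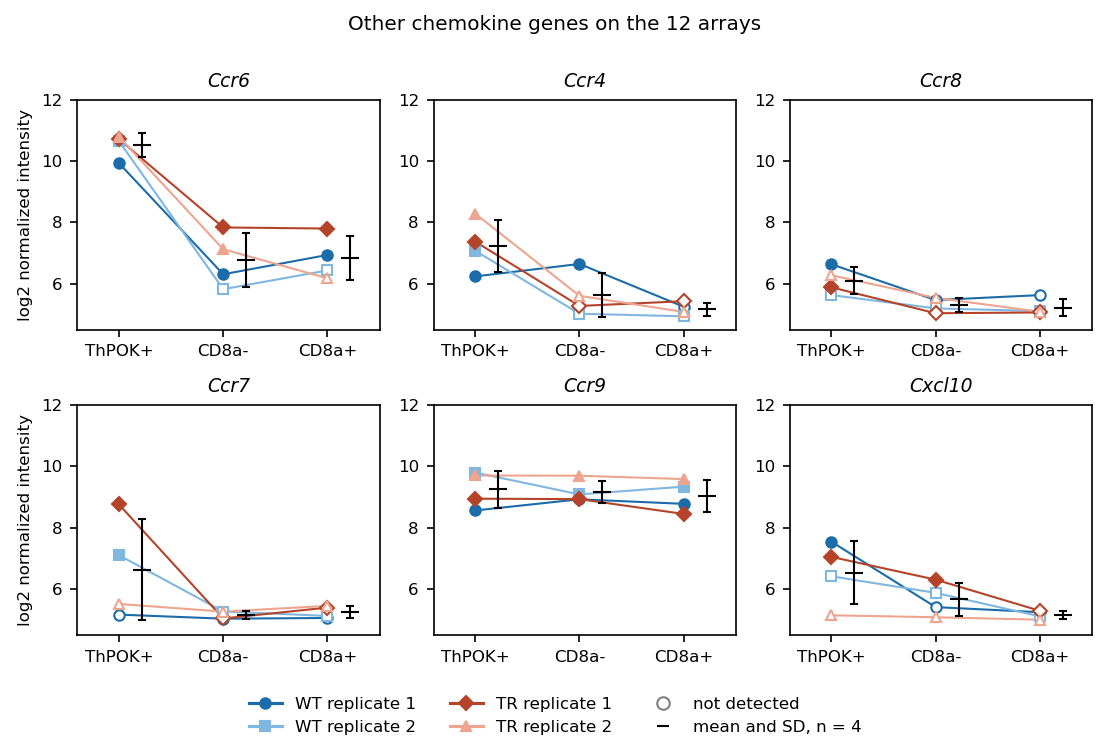
Log2 normalized intensity (y axis) of 5 other chemokine receptors and Cxcl10 in the 3 subsets (x axis), drawn as in the plot of the 9 genes and on 1 common y range. Ccr6 is above 9.9 on every ThPOK+ array and below 7.9 on every other array, while the subsets overlap for Ccr7 and Ccr9.

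Among 32 other ligands, 29 had a probe and 8 were tested. In the 3 comparisons 0 of the 8 were called (0.565%, 0.0565% and 0% of all genes). The medians of their differences were -0.09, -0.07 and -0.07. Cxcl10, an interferon-induced ligand of Cxcr3, was detected on 2 of 4 ThPOK+ arrays and 0 of 4 CD8a+ arrays. Its mean in ThPOK+ cells was at least 1.31-fold higher, and the difference did not pass the test (limma adjusted p = 0.151). Without ThPOK+ arrays Cxcl10 would not have passed the detection filter. In TR ThPOK+ replicate 2 it was 5.14, beside 5.08 and 4.996 in the other subsets of that set. Ccl11 was detected on 2 of 4 ThPOK+ and 1 of 4 CD8a+ arrays and Ccl19 on 1 of 4 in each, so no difference is given for them (limma adjusted p = 0.657 and 0.864). Ccl25, the gut epithelial ligand of Ccr9, was detected on every array and differed by -0.33 ± 0.49 between CD8a+ and ThPOK+ cells (limma adjusted p = 0.888). Cxcl12, Cxcl11 and Ccl2 were detected on 0 arrays, and Cxcl16 and the Xcl1 receptor Xcr1 on 1 each.

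Of 34 genes of chemokine receptor signalling and desensitisation, 32 had a probe and 30 were tested. In the 3 comparisons 0 of the 30 were called (0.565%, 0.0565% and 0% of all genes), with medians of -0.09, -0.12 and -0.04. The smallest p belonged to Rgs10, a GTPase-activating protein that ends G protein signals, at -0.53 ± 0.15 between CD8a+ and ThPOK+ cells (limma adjusted p = 0.207). Pik3cg, the catalytic subunit of the G protein-coupled phosphoinositide 3-kinase, differed by 0.80 ± 0.27 and was above in 4 of 4 sets (limma adjusted p = 0.317). Rgs16, another such GTPase-activating protein, was detected on 2 of 4 ThPOK+ and 1 of 4 CD8a+ arrays, too few for a fold (limma adjusted p = 0.377). The receptor kinase gene Grk5, detected on 2 of 4 arrays of each subset, differed by -0.57 ± 0.21 (limma adjusted p = 0.401).

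The genes with patterns most like those of 4 genes of the set were found by Pearson correlation over the 12 arrays after the mean of each set was removed, across 10611 other genes. For Ccl4 they were Litaf (0.988), Osgin1 (0.983) and Pelo (0.981). For Ccl3 they were Rnf139 (0.953), Rrp1 (0.931) and Qpct (0.913). For Cxcr3 they were Il10ra (0.991), Chst15 (0.972) and Satb1 (0.969), and Satb1 is in the list of naive markers. For Cxcr4 they were Tmsb10 (0.987), Ly6a (0.977) and LOC100041103 (0.976). Arrays of 1 set share their host and replicate number, and the highest of so many coefficients are high by selection, so these are descriptions only.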

How the data were processed

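Total RNA of sorted cells was measured on 12 Illumina MouseRef-8 arrays. Mean bead intensity was deposited for each probe, as GenomeStudio 1.0.6 gave it without normalization, per the file headers. The deposited detection column is a fraction from 0 to 1 that rises with signal, taken here as 1 minus the p-value of detection. The deposited table also gives bead numbers and bead standard deviations. A second deposited table holds log2 values whose scale and centring no source used here states. A comparison with the intensities showed log2 signals centred for each probe within a set, in the same direction as the intensities.

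The host of replicate 1 differs between the deposited tables. Within sets, they were equal under the same host label for replicate 2 and only under the other host's label for replicate 1, with a tolerance of 1e-05. The names of the intensity table were used, and no array was moved to another group.

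Normalization used limma 3.58.1 in R 4.3.3, by neqc (normexp with negative controls inferred from the detection p-values, offset 16), quantile normalization and log2. The filter asked for a detection p under 0.05 on 2 or more arrays and kept 14635 of 25697 probes. The probe with the highest mean stood for each gene. Gene names come from the intensity table, in which 20736 probes carried a current GRCm38.p6 symbol, 3841 an older one and 1120 another name. Older symbols were replaced by the current ones. Subsets were compared over both hosts by limma with all arrays in the fit and the 4 sets as a block (6 residual degrees of freedom), hosts by 6 group means without a block, and the dependence on host by interaction terms. Tests were two-sided with Benjamini-Hochberg adjustment over 10612 genes and a threshold of 0.05, and the fits were tested on simulated data.

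The differences between replicate 1 and replicate 2 correlated at 0.356 to 0.657 in all 15 pairs of groups, also across hosts. That shows a shift shared by arrays of the same number. Whether the arrays of 1 set belong together within a host was not tested. No label gives a day or animal that same-numbered arrays share. For a gene seen on at most 1 array of the dimmer subset the fold is a bound, in which each dim array counts at its own signal or at its lowest detected signal, whichever is higher. The 9 genes, the wider lists, the marker lists and the tests were chosen with earlier results of these data known. Named were the 9 genes, every called gene of the wider lists and up to 4 per list with the smallest p. Patterns alike were sought for the 4 genes of the set with the smallest p. Alternatives covered background, normalization, filter, probe, block, host naming, marker covariates, batches, the deposited log2 values and leaving out each array.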

Additional observations from a re-analysis of the deposited data

Results flagged for a closer look

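In 3 of 30 groups of 4 arrays, the array at the end of the range stood apart by Dixon's criterion. Chance gives about 1 in 20 groups where the 4 arrays are alike, and these groups mix hosts and replicate numbers. Xcl1 was 10.10 on WT CD8a+ replicate 2, while the other CD8a+ arrays lay between 8.60 and 8.82. The ThPOK+ and CD8a- arrays of that set were also high, at 9.38 and 10.25. Cxcr3 was 7.79 on WT ThPOK+ replicate 2, below the other ThPOK+ arrays at 9.06 to 9.17, and that set was lowest in each subset. Cxcr6 was 10.91 on TR ThPOK+ replicate 2, above the other ThPOK+ arrays at 10.19 to 10.30.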

How the results depend on the processing

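For CD8a+ against ThPOK+ cells, the count of called genes of the set was 1 as reported. It was 3 without background correction (Ccl3, Ccl4 and Cxcr3), and 2 with normexp at an offset of 50, with detection on at least 6 arrays and on the deposited log2 values (Ccl3 and Ccl4 in each). It was 0 with only the arrays compared, with replicate 1 or replicate 2 alone, with the naive marker covariate and without the 2 arrays highest in naive markers. Leaving out each array gave 0 to 2, with 2 without WT CD8a- replicate 2, where Ccl3 was called (limma adjusted p = 0.0279), and 0 without the 6 arrays named for Ccl4. For CD8a- against ThPOK+ cells the count was 0 as reported. It was 1 (Ccl4) without background correction, with normexp, with equal medians, with detection on at least 6 arrays, with the epithelium covariate and on the deposited values, and 0 to 1 when each array was left out, with 1 (Ccl4) without WT ThPOK+ replicate 1 (limma adjusted p = 0.0131). For CD8a+ against CD8a- cells, TR against WT and both interactions the count stayed 0 under every alternative run. Over all genes, the 60 called between CD8a+ and ThPOK+ cells became 148 without background correction, 121 with normexp, 127 on the deposited values, 110 and 92 with the epithelium and Paneth covariates, 29 with a block of the replicate number alone, 19 with no block, 3 with replicate 1 alone, 10 without the 3 arrays highest in Paneth markers, 2 to 78 without each array in turn, and 0 with only the arrays compared, replicate 2 alone, the naive covariate or without the 2 arrays highest in naive markers. The 6 called between CD8a- and ThPOK+ cells became 56 on the deposited values, 45 without background correction, 31 with normexp or equal medians, 16 with detection on at least 6 arrays and 14 with the epithelium covariate. They became 3 with no block, replicate 1 alone or the Paneth covariate, 0 to 14 without each array in turn, and 0 under the settings that gave 0 above and without the 3 Paneth-high arrays. For TR against WT, 1 gene was called with the hosts of replicate 1 exchanged, 8 with the replicate block added and 13 without WT CD8a+ replicate 1. For the 1 called gene the block changed no call, with Ccl4 at adjusted p = 0.0385 under the replicate number alone and 0.0397 without a block (limma). The arrays left out by marker level were chosen after seeing the data.

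Signs turned for differences that were not called, and the cause was not tested. With the naive covariate, CD8a+ against ThPOK+ gave Ccl5 -0.038, Cxcr4 0.11 and Cxcr6 0.13. CD8a- against ThPOK+ gave Ccl5 -0.054, Xcl1 0.62 and Cxcr4 0.050, and CD8a+ against CD8a- gave Ccl4 -0.029 and Cxcr4 0.061. With replicate 1 alone, CD8a+ against ThPOK+ gave Xcl1 -0.47 and Cxcr6 0.084. With replicate 2 alone, CD8a- against ThPOK+ gave Xcl1 0.44 and Cxcr6 -0.001. With the Paneth and epithelium covariates, Cxcr6 in CD8a- against ThPOK+ was -0.12 and -0.082, and Ccl4 in CD8a+ against CD8a- was -0.088 and -0.10. Without the 3 arrays highest in Paneth markers, Xcl1 was -0.54 in CD8a+ and Cxcr6 -0.081 in CD8a- against ThPOK+. Without the 2 highest in naive markers, Cxcr6 was 0.054 in CD8a+ and Xcl1 0.34 in CD8a- against ThPOK+. With equal medians, Xcl1 was 0.069 in CD8a- against ThPOK+, and TR against WT gave Ccl3 -0.055 and Ccl4 0.001. With the hosts of replicate 1 exchanged, Ccl4 in TR against WT was 0.57, with or without the replicate block. Leaving out each array, CD8a+ against ThPOK+ ran from -0.20 to 0.57 for Xcl1 and -0.21 to 0.024 for Cxcr6, and CD8a- against ThPOK+ from -0.29 to 0.47 and -0.043 to 0.12. CD8a+ against CD8a- ran from -0.008 to 0.33 for Ccl4 and -0.15 to 0.35 for Xcl1. TR against WT ran from -0.24 to 0.41 for Ccl3, -0.33 to 0.18 for Ccl4 and -0.016 to 0.28 for Cxcr6.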
